A study of Mus musculus with 12 samples.

Results

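The levels of 8 genes of lipid-associated and monocyte-derived macrophages were followed through 12 mouse liver RNA-seq libraries. The genes were Trem2, Gpnmb, Cd9, Cd63, Lgals3, Tyrobp, Lyz2 and Ly6c2. They were chosen by name as a list of known macrophage genes. Earlier results of these data were known at that time, so no count of them is independent evidence. Their symbols were matched to the Ensembl identifiers of the deposited count table. All 8 were found among its 24983 genes, and all 8 passed the filter on low counts that left 14469 genes for testing.

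The study compared the livers of C57BL/6J mice in 4 groups of 3 animals, each animal with its own ear tag, after 24 weeks on a diet. Chow mice ate a standard diet, and the other 9 mice ate a diet for nonalcoholic steatohepatitis (NASH), with 40% of calories from fat, that is rich in saturated and trans fats, fructose and cholesterol. Those 9 mice carried an osmotic minipump under the skin. It delivered the solvent polyethylene glycol (PEG) alone in the vehicle group, oleic acid (OA) in PEG in the OA group, and OA-NO2 (oleic acid carrying a nitro group) in PEG in the OA-NO2 group, with 5 mg/kg/day as the stated rate. No pump is named for the chow mice, so diet and pump cannot be told apart in any comparison with chow. The sources used here do not give the animals' sex and age or the week in which the pumps were implanted.

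TREM2 is a receptor on macrophages that binds lipids and lipoproteins. It carries no signalling motif of its own and works through the membrane adaptor DAP12, the product of Tyrobp, which recruits the kinase SYK. In fatty liver and in obese adipose tissue, macrophages that take up lipid carry TREM2 together with the glycoprotein GPNMB, the tetraspanins CD9 and CD63 and the galactose-binding lectin galectin-3 (Lgals3). In liver, many of these cells derive from recruited Ly6C-high blood monocytes rather than from resident Kupffer cells. Lyz2 encodes lysozyme M, which is common to monocytes, macrophages and neutrophils, and Ly6c2 encodes a Ly6C antigen that marks classical monocytes.

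The promoters of Trem2 and Gpnmb are shown because these genes had the largest differences between diets and were among the members with the widest spread between infused livers. Each sequence is RefSeq's for GRCm38.p6 and runs from 250 bases before to 50 bases after the start site, read on the plus strand. The Trem2 window is chr17:48346151-48346450 and the Gpnmb window is chr6:49036268-49036567. Capitals mark matches to the AP-1 motif TGANTCA in both windows and to the PU.1 core GAGGAA (on the other strand TTCCTC) in the Trem2 window.
Trem2: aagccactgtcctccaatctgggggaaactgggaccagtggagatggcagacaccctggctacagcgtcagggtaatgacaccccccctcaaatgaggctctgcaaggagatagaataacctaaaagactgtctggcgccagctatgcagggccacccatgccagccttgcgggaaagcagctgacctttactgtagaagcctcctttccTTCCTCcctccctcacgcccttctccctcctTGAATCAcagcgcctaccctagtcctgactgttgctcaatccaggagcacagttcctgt
Gpnmb: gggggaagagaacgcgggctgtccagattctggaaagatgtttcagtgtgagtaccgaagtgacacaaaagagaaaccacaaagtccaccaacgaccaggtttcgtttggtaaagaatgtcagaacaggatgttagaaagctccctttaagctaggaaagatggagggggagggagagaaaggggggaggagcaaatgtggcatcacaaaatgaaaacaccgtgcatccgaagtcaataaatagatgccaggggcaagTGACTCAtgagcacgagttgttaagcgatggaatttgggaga
Both windows hold 1 AP-1 match, starting 9 bases before the start site in Trem2 and at base 9 after it in Gpnmb, and the Trem2 PU.1 core starts 40 bases before it. On either strand, TGANTCA occurs in 7.81% and GAGGAA in 28.3% of 32851 promoter windows of the same length. The E-box CACGTG, found in 7.15% of windows, and TCATGTG, found in 3.77%, were searched as well and were in neither window. Promoter windows were available for 7 of the 8 members. Of the other 5, Cd63 and Ly6c2 held GAGGAA and Cd9, Lgals3 and Lyz2 held none of these motifs. These matches describe letters and were not tested as binding sites.

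Library totals ranged from 8462590 counts in chow replicate 1 to 20613777, and the next lowest was 15972613. Albumin took 4.06% to 9.5% of counts, the gene of the main plasma protein made by liver, with 7.91% to 9.5% in chow and 4.06% to 5.31% in vehicle. OA replicate 3 stood apart from the other OA libraries. On the first principal component of log2 CPM (47.0% of the variance) it lay at -11.64, against 40.57 and 33.02 for OA replicates 1 and 2, and its albumin share was 7.07% against 5.01% and 5.4%. The OA-NO2 libraries lay between -22.41 and 8.13 on that axis. The counts of members called that involve the OA group, and those of the main lists, are therefore given with and without OA replicate 3. It was singled out on these same data, so fits without it are no independent support. The fit shares its spread over all groups, so leaving out that library also moves p-values of comparisons without OA.

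On the NASH diet with vehicle, 7 of the 8 genes rose against chow and the eighth, Ly6c2, had a higher mean that did not pass the test. Across all genes tested, 19.3% were called in this comparison and 11.1% were called higher. A gene is called here when its p in edgeR's quasi-likelihood test, adjusted over all genes tested, is under 0.05. Every vehicle library lay above every chow library for all 8 members, which was so for 20.4% of all genes. The members' median log2 difference was 2.70, and that of all genes was -0.01. Levels below are in CPM, counts scaled to a common library total by TMM factors. In whole liver, a larger number of macrophages and more RNA per macrophage cannot be told apart.

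In the OA group, 7 of 8 members again rose against chow (8.56% of all genes were called and 6.33% were called higher), with a median log2 difference of 2.54. In the OA-NO2 group none of the 8 was called against chow, where only 0.684% of all genes were. 6 of the 8 had an unadjusted p under 0.05 in that comparison (18.8% of all genes), and 6 had groups that did not overlap, all higher (12.3%). DESeq2 called 3 of the 8, Trem2, Gpnmb and Lgals3, among 654 genes (386 higher). The median log2 difference of the members was 1.35 there. The 3 comparisons share the chow libraries. Leaving out OA replicate 3 kept the counts at 7 for vehicle and 7 for OA. It raised the OA-NO2 count from 0 to 3, again Trem2, Gpnmb and Lgals3, while all genes called there went from 99 to 284 (178 higher). In the OA group over chow, the log2 fold changes without that library were 4.13 for Trem2, 8.2 for Gpnmb, 1.84 for Cd9, 3.5 for Cd63, 3.51 for Lgals3, 1.98 for Tyrobp and 2.28 for Lyz2, each called, and 1.02 for Ly6c2 (adjusted p = 0.165).

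**Figure D1:**
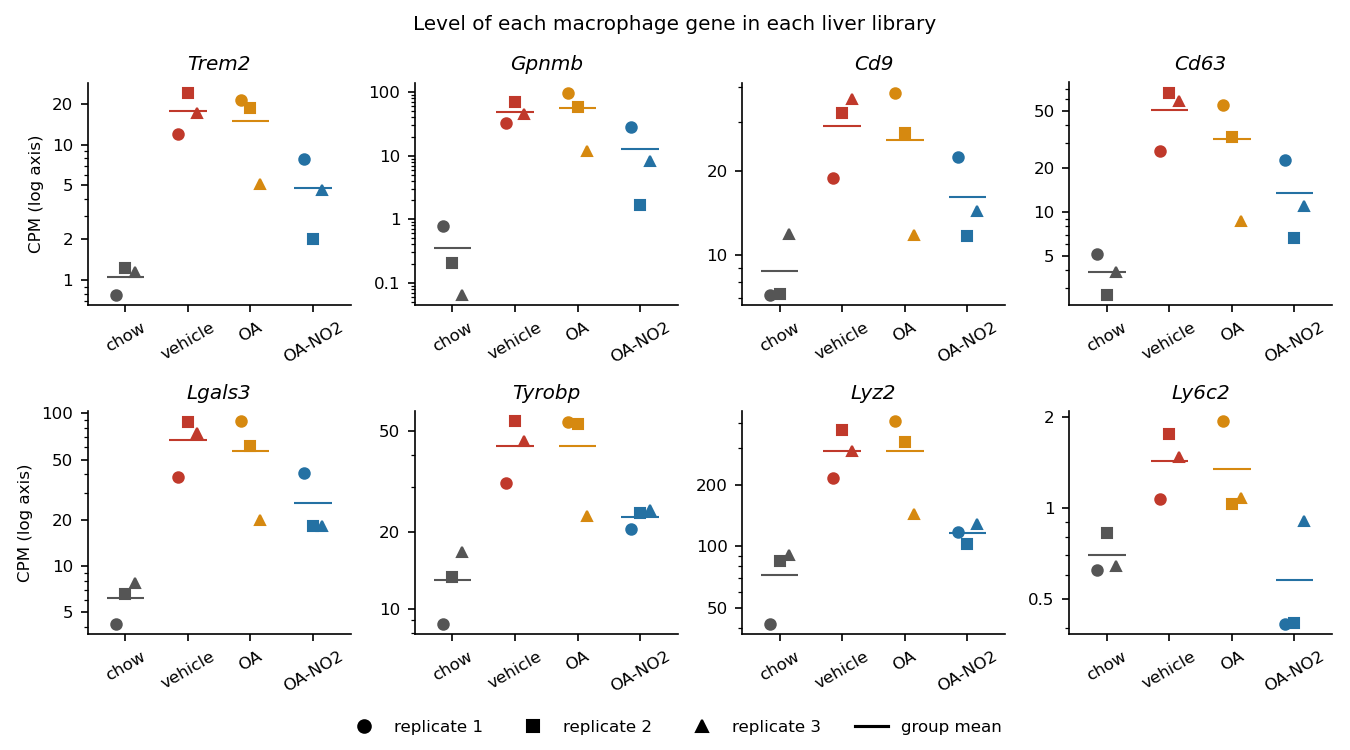
Level of each of the 8 genes in each of the 12 libraries, in CPM on a log axis. Each point is one mouse, its shape gives the replicate number, and the bar is the group mean. All vehicle points lie above all chow points, OA replicate 3 (triangle) is the lowest OA library for 7 genes, and the OA-NO2 points lie between the chow and vehicle means or, for Ly6c2, around the chow level.

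Trem2 encodes the lipid receptor itself (ENSMUSG00000023992, chromosome 17, 48346401 to 48354147, plus strand, GRCm38). It stood at 0.78, 1.24 and 1.15 CPM in the chow livers and at 12.0, 24.1 and 17.0 CPM in the vehicle livers. In the OA livers it was 21.3, 18.6 and 5.12 CPM, and in the OA-NO2 livers 7.87, 2.02 and 4.59 CPM. No library on the NASH diet reached down to the chow range, and OA replicate 3 was the one OA library inside the OA-NO2 range. Group means were 1.06 ± 0.244 CPM (SD, n = 3) in chow, 17.7 ± 6.09 in vehicle, 15 ± 8.66 in OA and 4.83 ± 2.93 in OA-NO2. Against chow, the log2 fold change was 4.0 ± 0.61 (SE, adjusted p = 0.00254) in vehicle and 3.76 ± 0.61 (adjusted p = 0.00465) in OA. In OA-NO2 it was 2.12 ± 0.62 with an adjusted p of 0.112, and 2.09 with 0.0418 when OA replicate 3 was left out of the fit.

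Tyrobp encodes the adaptor DAP12, which also serves other activating receptors of myeloid and natural killer cells (ENSMUSG00000030579, chromosome 7, 30413760 to 30417585, plus strand). Its levels were 8.73, 13.3 and 16.7 CPM in chow and 31.2, 54.3 and 45.5 CPM in vehicle. They were 53.9, 52.8 and 23.2 CPM in OA and 20.5, 23.7 and 24.3 CPM in OA-NO2. The OA-NO2 livers lay close together, with a coefficient of variation of 8.89% against 26.7% in vehicle and 40.3% in OA, and all 3 were below the lowest vehicle liver. Tyrobp rose by 1.73 ± 0.31 on the log2 scale in vehicle (adjusted p = 0.00413) and by 1.72 ± 0.31 in OA (adjusted p = 0.00734). In OA-NO2 its log2 fold change over chow was 0.80 ± 0.31 (adjusted p = 0.198).

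Gpnmb encodes a transmembrane glycoprotein of phagocytic macrophages and of melanosomes (ENSMUSG00000029816, chromosome 6, 49036546 to 49070929, plus strand). Chow livers held 5, 3 and 1 counts, or 0.78, 0.206 and 0.064 CPM, so every fold against chow rests on 9 counts in all. The vehicle livers stood at 32.5, 69.5 and 45.6 CPM and the OA livers at 98.3, 58.2 and 11.7 CPM. The OA-NO2 livers stood at 27.9, 1.66 and 8.34 CPM. Gpnmb was thus the most variable member within the NASH diet, with its highest library 59.3-fold above its lowest, and OA-NO2 replicate 2 was the low end. The log2 fold change over chow was 7.56 ± 1.26 in vehicle (adjusted p = 0.00331), 7.75 ± 1.26 in OA (adjusted p = 0.00475) and 5.61 ± 1.31 in OA-NO2 (adjusted p = 0.0638). Without OA replicate 3 the OA-NO2 adjusted p was 0.027, and all 3 OA-NO2 livers lay above all chow livers.

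Cd9 and Cd63 encode tetraspanins, proteins that cross the membrane several times and sit in membranes of the cell surface and of late endosomes and exosomes. Cd9 (ENSMUSG00000030342, chromosome 6, 125460266 to 125494791, minus strand) measured 7.17, 7.23 and 11.9 CPM in chow and 18.8, 32.1 and 36.1 CPM in vehicle. In OA it measured 38.1, 27.4 and 11.8 CPM and in OA-NO2 22.4, 11.7 and 14.3 CPM. 1 OA liver and 1 OA-NO2 liver therefore fell inside the chow range. Cd9 had the smallest change of the called members, 1.71 ± 0.40 on the log2 scale in vehicle (adjusted p = 0.0122) and 1.54 ± 0.40 in OA (adjusted p = 0.0312). The vehicle call was lost without chow replicate 2 (adjusted p = 0.0546). The OA call was lost without any of chow replicates 1 and 2 and OA replicates 1 and 2, with adjusted p up to 0.159. In OA-NO2 the log2 fold change was 0.86 ± 0.40 (adjusted p = 0.262).

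Cd63 (ENSMUSG00000025351, chromosome 10, 128900989 to 128912822, plus strand) marks lysosomes and late endosomes. It measured 5.15, 2.68 and 3.84 CPM in chow and 26.5, 66.4 and 58 CPM in vehicle. In OA it measured 54.3, 32.9 and 8.61 CPM and in OA-NO2 22.8, 6.63 and 11.0 CPM. All 9 livers on the NASH diet were above the chow livers, and the lowest vehicle liver was above the highest OA-NO2 liver. Its log2 fold change over chow was 3.74 ± 0.65 in vehicle (adjusted p = 0.00365), 3.09 ± 0.64 in OA (adjusted p = 0.0115) and 1.85 ± 0.63 in OA-NO2 (adjusted p = 0.156). The OA call was lost without chow replicate 2 (adjusted p = 0.0578) or without OA replicate 1 (adjusted p = 0.0533).

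Lgals3 encodes galectin-3, a lectin that macrophages secrete and that is also found in bile duct cells (ENSMUSG00000050335, chromosome 14, 47367751 to 47386160, plus strand). Chow livers held 4.21, 6.61 and 7.81 CPM and vehicle livers 38.7, 88.6 and 74.1 CPM. OA livers held 88.8, 61.1 and 20.0 CPM and OA-NO2 livers 40.7, 18.4 and 18.4 CPM. Every liver on the NASH diet was above every chow liver, while OA-NO2 replicate 1 reached into the vehicle range. The log2 fold change over chow was 3.39 ± 0.52 in vehicle (adjusted p = 0.00254) and 3.15 ± 0.52 in OA (adjusted p = 0.00502). It was 2.02 ± 0.51 in OA-NO2 (adjusted p = 0.0783), and 1.98 with an adjusted p of 0.027 without OA replicate 3.

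Lyz2 encodes the bacterial cell wall-cleaving lysozyme of myeloid cells (ENSMUSG00000069516, chromosome 10, 117277331 to 117282321, minus strand). It was the most abundant member in every library, with 42.0, 84.6 and 90.9 CPM in chow and 215, 368 and 291 CPM in vehicle. The OA livers held 406, 322 and 143 CPM and the OA-NO2 livers 118, 103 and 129 CPM. All OA-NO2 livers were above the chow livers and below every vehicle and every OA liver, with a coefficient of variation of 11.0% in OA-NO2. Lyz2 rose by 2.00 ± 0.36 on the log2 scale over chow in vehicle (adjusted p = 0.00407) and by 2.00 ± 0.36 in OA (adjusted p = 0.00694). In OA-NO2 the log2 fold change was 0.68 ± 0.35 (adjusted p = 0.306).

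Ly6c2, the classical monocyte antigen (ENSMUSG00000022584, chromosome 15, 75108158 to 75111970, minus strand), was rare, with 4 to 38 counts per library. It stood at 0.624, 0.826 and 0.64 CPM in chow and 1.07, 1.76 and 1.48 CPM in vehicle. In OA it stood at 1.94, 1.03 and 1.08 CPM and in OA-NO2 at 0.412, 0.414 and 0.906 CPM. The OA-NO2 livers were below all vehicle and OA livers and overlapped the chow livers. No comparison with chow passed the test. The log2 fold changes over chow were 1.02 ± 0.42 in vehicle (adjusted p = 0.11), 0.93 ± 0.43 in OA (adjusted p = 0.189) and -0.31 ± 0.46 in OA-NO2 (adjusted p = 0.753). Relative to library size alone, without TMM scaling, Ly6c2 was called in vehicle (adjusted p = 0.0166) and in OA (adjusted p = 0.0387), a scaling that shifted the median of all genes by 0.51 and 0.42.

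Averaged over the 3 groups on the NASH diet, 7 of 8 members were called higher than in chow (16.1% of all genes were called and 9.16% were called higher). For 6 of the 8, all but Cd9 and Ly6c2, every one of these 9 livers lay above every chow liver, as for 6.98% of all genes. The log2 fold changes ran from 0.55 ± 0.37 for Ly6c2 (adjusted p = 0.335) to 6.97 ± 1.21 for Gpnmb (adjusted p = 0.00409). Cd9 lost this call without chow replicate 1 (adjusted p = 0.0906) or chow replicate 2 (adjusted p = 0.101).

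Levels of different genes were compared per kilobase of exon. In chow the order was Lyz2 with a mean of 55.1 CPM per kb, Tyrobp with 19.4, Cd9 with 4.29, Lgals3 with 3.34, Cd63 with 1.06, Ly6c2 with 0.254, Trem2 with 0.214 and Gpnmb with 0.0537. In vehicle it was Lyz2 with 222, Tyrobp with 65.4, Lgals3 with 36.1, Cd9 with 14.2, Cd63 with 13.7, Gpnmb with 7.55, Trem2 with 3.59 and Ly6c2 with 0.524. Gpnmb thus moved from the last place in chow to the sixth in vehicle, and Lgals3 passed Cd9. Of neighbours in these orders, the libraries overlapped for Cd9 and Lgals3 and for Ly6c2 and Trem2 in chow, and for Tyrobp and Lgals3, Cd9 and Cd63, and Cd63 and Gpnmb in vehicle. The orders of means in OA and OA-NO2 were the vehicle order, in OA-NO2 with 88.7 CPM per kb for Lyz2, 13.9 for Lgals3, 1.94 for Gpnmb and 0.976 for Trem2.

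**Figure D2:**
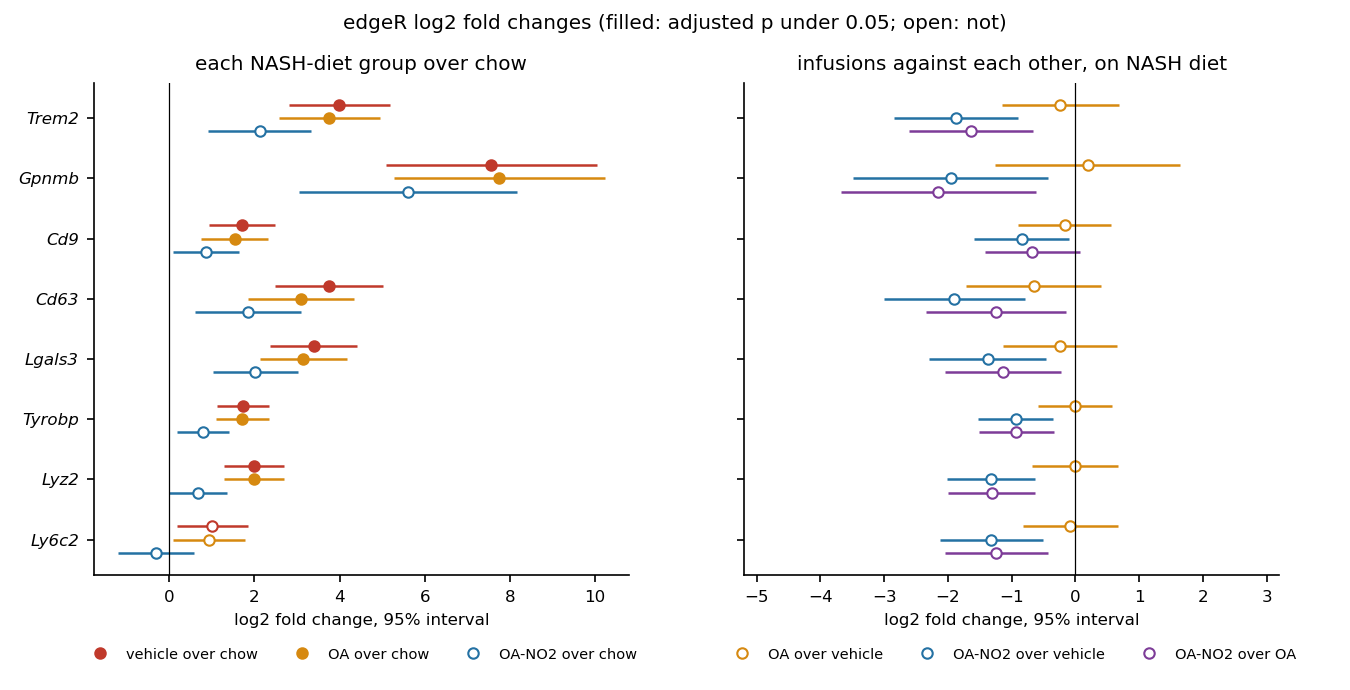
Log2 fold changes of the 8 genes with approximate 95% intervals, each NASH-diet group over chow on the left and the infusions against each other on the right. Filled points passed an adjusted p of 0.05. The vehicle and OA points are filled for every gene except Ly6c2, no OA-NO2 point is filled, and every point of OA-NO2 over vehicle and over OA lies below 0.

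The question of the infusions was whether OA-NO2, and OA as its parent fatty acid, went with other levels of these genes than the vehicle did. OA against vehicle gave no call among the 8 members and none among 14469 genes in edgeR, with 564 genes (3.9%) and no member at an unadjusted p under 0.05. DESeq2, run on the whole table of 24983 genes, gave no call either. The log2 differences of the members ran from -0.65 for Cd63 (95% interval -1.71 to 0.41) to 0.19 for Gpnmb (-1.26 to 1.64). For Trem2 the difference was -0.24 (-1.15 to 0.68), for Tyrobp -0.01 (-0.59 to 0.57) and for Lyz2 -0.01 (-0.68 to 0.67). These intervals include differences of more than 1 log2 unit either way for Gpnmb, so the test does not show that OA and vehicle act alike. No member's groups were apart (13.1% of all genes). Without OA replicate 3 the differences of Trem2, Cd9, Lgals3, Tyrobp, Lyz2 and Ly6c2 turned positive, the largest at 0.29 for Lyz2, and none was called.

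OA-NO2 against vehicle gave a negative log2 difference for all 8 members, and none passed adjustment, where 3 of all genes (0.0207%) did. All 8 had an unadjusted p under 0.05, as did 15.8% of all genes. 6 of the 8, all but Cd9 and Lgals3, had every OA-NO2 liver below every vehicle liver (10.5% of all genes). The members' median was -1.35 and that of all genes 0.02. Gpnmb differed by -1.96 ± 0.78 (adjusted p = 0.251), Cd63 by -1.90 ± 0.56 (0.171) and Trem2 by -1.87 ± 0.49 (0.158). Lgals3 differed by -1.38 ± 0.47 (adjusted p = 0.196), Lyz2 by -1.32 ± 0.35 (0.159) and Ly6c2 by -1.32 ± 0.41 (0.178). The smallest differences were those of Tyrobp, -0.93 ± 0.30 (adjusted p = 0.18), and Cd9, -0.84 ± 0.38 (adjusted p = 0.3). DESeq2 called 2 members lower, Trem2 and Lyz2, among 287 genes, and the fit without OA replicate 3 called 3, Trem2 (adjusted p = 0.0366), Cd63 (0.0496) and Lyz2 (0.0393), among 155 genes.

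The pair of related fatty acids was given at a matched rate for the same diet, so 1 pair of compounds was compared. OA-NO2 had a negative log2 difference from OA for all 8 members and none was called, where 1 of all genes (0.00691%) was. 7 of the 8 had an unadjusted p under 0.05 (12.0% of all genes), and 2, Lyz2 and Ly6c2, had groups that did not overlap, with OA-NO2 lower (7.37%). The members' median was -1.24. The difference was -2.15 for Gpnmb (95% interval -3.68 to -0.61), -1.64 for Trem2 (-2.60 to -0.67), -1.32 for Lyz2 (-2.0 to -0.63) and -0.67 for Cd9 (-1.42 to 0.07). Adjusted p ran from 0.313 to 0.482. The comparison turned on OA replicate 3. Without it Lyz2 (-1.63, adjusted p = 0.0283), Trem2 (-2.04, 0.0361) and Tyrobp (-1.21, 0.0407) were called lower with OA-NO2, among 130 genes. That library was the lowest OA liver for these genes and lay among the OA-NO2 livers on the first principal component. Leaving it out widens the difference of these genes by construction, so the calls made without it are no added support. DESeq2 with all libraries called Lyz2 alone of the 8 (adjusted p = 0.0344), among 52 genes. A missed threshold does not show that both fatty acids act alike on these genes.

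The members were ranked over the 9 livers on the NASH diet. Among these, OA-NO2 replicate 2 was lowest for 6 of the 8 genes and OA-NO2 replicate 1 for the other 2, Tyrobp and Ly6c2. OA replicate 1 was highest for 5 genes and vehicle replicate 2 for 3. OA replicate 3 was among the lowest 3 for 6 genes. The orders differed within OA-NO2, where replicate 1 was highest for Trem2, Gpnmb, Cd9, Cd63 and Lgals3 and lowest for Tyrobp and Ly6c2. The spread within OA-NO2 differed by gene, from coefficients of variation of 8.89% for Tyrobp and 11.0% for Lyz2 to 60.8% for Trem2, 62.1% for Cd63 and 108% for Gpnmb. These are ranks and spreads over shared livers and were given no test.

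Ratios between pairs of members remove what both genes share, library depth and any common change in cell number included. For each Tyrobp count, chow livers held 0.0893, 0.0928 and 0.069 Trem2 counts and vehicle livers 0.386, 0.445 and 0.375. OA livers held 0.395, 0.351 and 0.221 and OA-NO2 livers 0.383, 0.0853 and 0.189. The receptor thus stood higher against its adaptor in 8 of the 9 livers on the NASH diet than in any chow liver, and OA-NO2 replicate 2 was inside the chow range. OA-NO2 replicate 1 was inside the vehicle range. For each Trem2 count, vehicle livers held 2.71, 2.88 and 2.68 Gpnmb counts, OA livers 4.61, 3.14 and 2.28, and OA-NO2 livers 3.54, 0.821 and 1.82. For each Cd9 count, there were 0.323 to 0.717 Cd63 counts in chow, 1.41 to 2.07 in vehicle, 0.73 to 1.43 in OA and 0.566 to 1.02 in OA-NO2. For each Tyrobp count there were 0.0383 to 0.0714 Ly6c2 counts in chow, 0.0324 to 0.0344 in vehicle, 0.0194 to 0.0468 in OA and 0.0175 to 0.0372 in OA-NO2, with OA replicate 3 inside the chow range. These ratios were not tested.

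**Figure D3:**
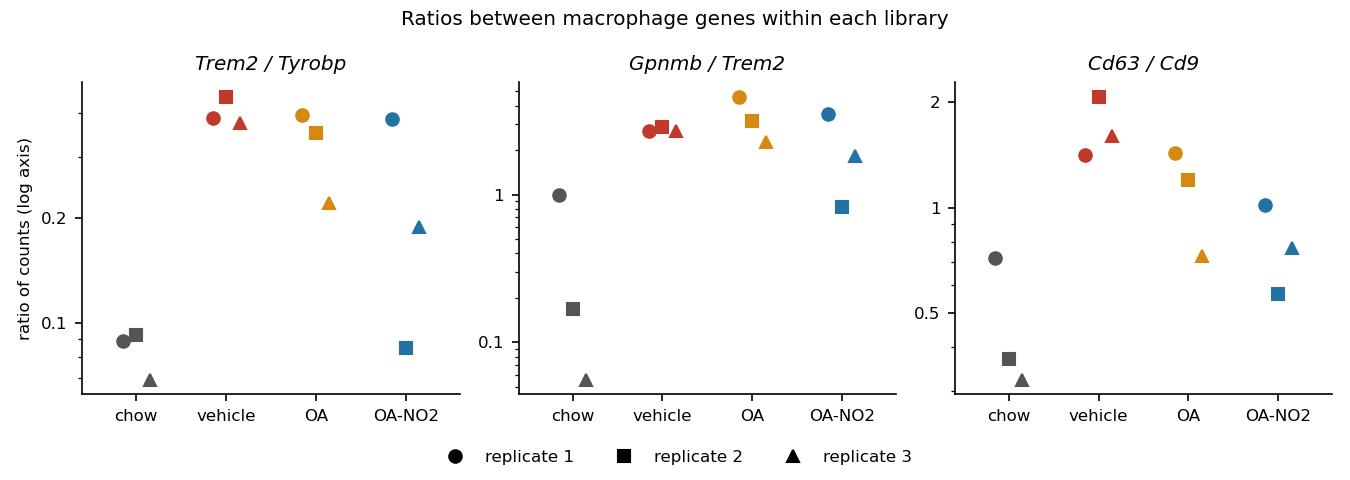
Ratios of counts between pairs of the 8 genes in each library, on log axes, with 1 point per mouse. The ratio of Trem2 to Tyrobp lies at 0.375 to 0.445 in vehicle and at 0.069 to 0.0928 in chow, and the OA-NO2 points spread from 0.0853 to 0.383.

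General macrophage genes also rose on the diet, so each member was set against them. Of 6 pan-macrophage genes, 4 rose in vehicle and 5 in OA over chow and none in OA-NO2, Fcgr1, an Fc receptor, by 1.94 ± 0.30 in vehicle (adjusted p = 0.00254) and Mpeg1, perforin-2, by 1.37 ± 0.21 (0.00254). The reference was the summed counts of Csf1r, Adgre1, Mpeg1, Spi1, Fcgr1 and Mertk, genes carried by macrophages of most kinds, with 905 to 11581 counts per library. Their summed level was 141 to 221 CPM in chow, 386 to 458 in vehicle, 382 to 594 in OA and 294 to 329 in OA-NO2. Mpeg1 made up most of it, with means of 105 of 191 CPM in chow, 271 of 416 in vehicle, 315 of 494 in OA and 186 of 309 in OA-NO2. The scale thus leans largely on that gene. For each 1000 reference counts, chow livers held 5.52, 5.83 and 5.22 Trem2 counts and vehicle livers 29.8, 62.5 and 37.2. OA livers held 42.1, 31.3 and 13.4 and OA-NO2 livers 26.8, 6.65 and 13.9. Trem2 was thus above its chow share in all 9 livers on the NASH diet, and OA-NO2 replicate 2 came nearest to it.

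On this relative scale, 6 of 8 members were called higher in vehicle than in chow, where 2.63% of all genes were called higher. In all, 74.2% of genes were called on it, mostly lower, since the reference itself rose and the median of all genes lay at -1.15. With so many genes called the adjustment is mild, so adjusted p on this scale cannot be set against those on CPM. Gpnmb rose by 6.50 ± 1.01 relative to the reference (adjusted p = 0.00011), Trem2 by 2.96 ± 0.50 (0.000138), Cd63 by 2.57 ± 0.54 (0.000396) and Lgals3 by 2.33 ± 0.42 (0.000178). Lyz2 rose by 0.94 ± 0.32 (adjusted p = 0.0115) and Tyrobp by 0.65 ± 0.28 (adjusted p = 0.0378). The Lyz2 call was lost without vehicle replicate 2 (adjusted p = 0.0908), and the Tyrobp call without any of chow replicates 1 and 2 and vehicle replicates 2 and 3. Cd9 (0.60, adjusted p = 0.12) and Ly6c2 (-0.05, adjusted p = 0.926) did not pass.

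Averaged over the 3 NASH-diet groups, 4 of 8 members were called higher on this scale (1.64% of all genes, 77.7% either way). In OA, 4 of 8 members were called higher than in chow relative to the reference (1.3% of all genes were called higher and 80.8% either way, around a median of -1.36), Gpnmb by 6.34 (adjusted p = 8.91e-05), Trem2 by 2.39 (0.000233), Lgals3 by 1.77 (0.000671) and Cd63 by 1.60 (0.00869). The Cd63 call was lost without chow replicate 2 (1.29, adjusted p = 0.0504) and without OA replicate 1 (0.94, 0.0871). The Cd63 groups also overlapped, with 22.5 per 1000 reference counts in OA replicate 3 and 36.5 in chow replicate 1. Lyz2 was called as well without OA replicate 3 (0.86, adjusted p = 0.0112). In OA-NO2, 3 of 8 were called higher (0.74% of all genes were called higher and 39.4% either way, around a median of -0.69), Gpnmb by 4.98 (adjusted p = 0.00678), Lgals3 by 1.39 (0.0173) and Trem2 by 1.51 (0.0255). The Gpnmb groups overlapped on this scale, with 5.46 per 1000 reference counts in OA-NO2 replicate 2 and 5.52 in chow replicate 1. In edgeR's test, the unadjusted p was 0.00289 for Lgals3 and 0.00645 for Trem2 here, against 0.00151 and 0.00423 on CPM. Their adjusted p was lower here because far more genes were called, not because the difference from chow was clearer. Without chow replicate 1, and likewise without OA-NO2 replicate 1, the Trem2 and Lgals3 calls were lost and 1 member stayed called. Trem2 was 1.51 (adjusted p = 0.0858) and 0.89 (0.148) in these fits, and Lgals3 1.35 (0.0731) and 0.85 (0.105). Trem2 was also lost without chow replicate 3 (1.46, adjusted p = 0.0605), and Cd63 was gained without OA-NO2 replicate 2 (1.44, 0.046). Lyz2 and Tyrobp in OA-NO2 differed from chow by 0.03 and 0.14 on this scale, with adjusted p of 0.942 and 0.69. Among the infusions no member was called. OA-NO2 over vehicle ran from -1.52 to -0.40 (lowest adjusted p 0.111; 0.0276% of all genes were called lower and 0.415% either way), and OA-NO2 over OA ran from -1.36 to 0.05 (lowest adjusted p 0.099; 0.0207% lower and 14.0% either way). Without OA replicate 3, Trem2 was called lower in OA-NO2 than in vehicle (-1.45, adjusted p = 0.0431), and Trem2, Gpnmb and Lyz2 were called lower than in OA.

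**Figure D4:**
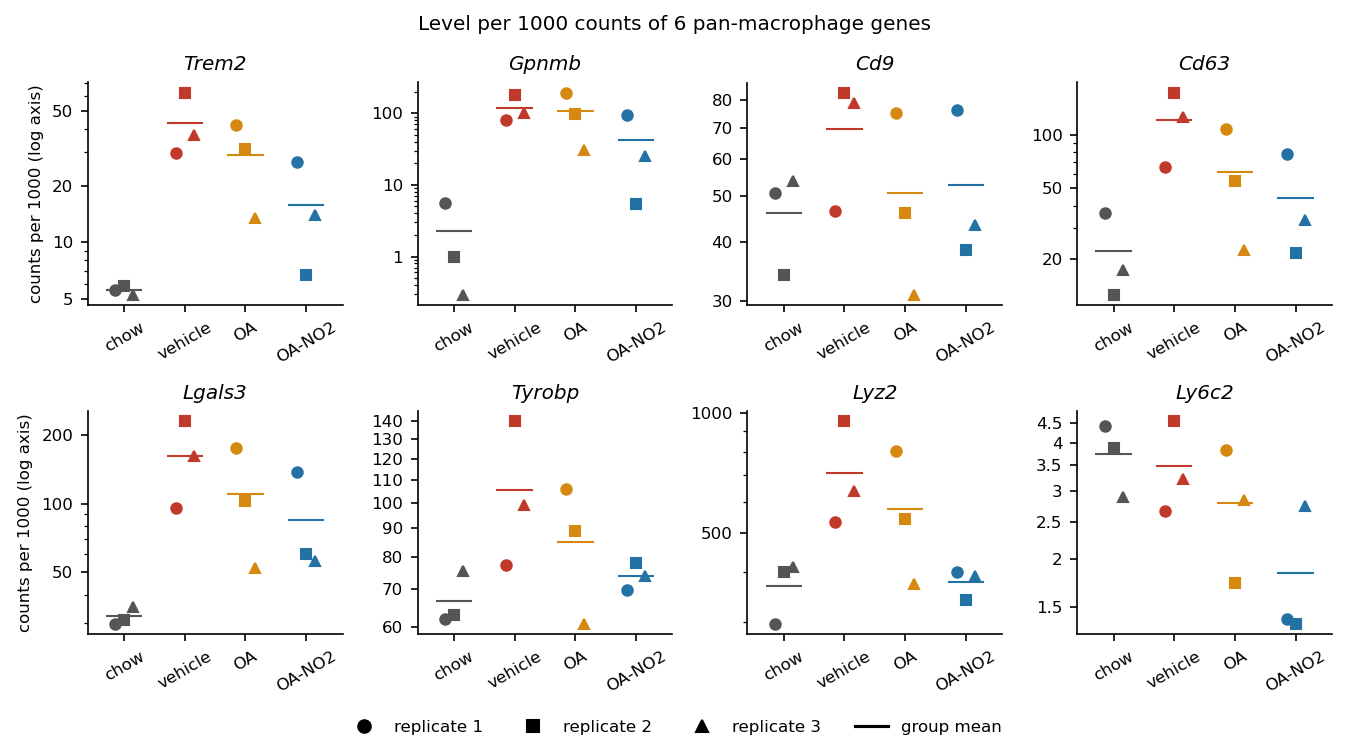
Counts of each of the 8 genes for each 1000 counts of 6 pan-macrophage genes, per library on a log axis, with group means as bars. Trem2, Gpnmb, Cd63 and Lgals3 lie above their chow values in the vehicle livers, while the Ly6c2 means are 3.74 in chow and 3.48 in vehicle.

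Other genes of lipid-associated macrophages were taken from a list of 30, of which 29 were tested. 18 of the 29 rose in vehicle, 14 in OA and 1 in OA-NO2 over chow, with median log2 differences of 0.87, 1.09 and 0.50. The list's summed level did not separate the groups, at 20900 to 29800 CPM in chow, 25100 to 29000 in vehicle, 24000 to 32400 in OA and 28300 to 36300 in OA-NO2. Clec7a, the beta-glucan receptor dectin-1, rose by 3.28 ± 0.45 in vehicle (adjusted p = 0.00207) and by 3.30 ± 0.45 in OA (0.00249). Lpl, lipoprotein lipase, rose by 3.2 ± 0.47 in vehicle (adjusted p = 0.00252), and Capg, an actin-capping protein of macrophages, by 2.62 ± 0.33 (0.00143). Mmp12, the macrophage elastase, was the gene called in OA-NO2 (adjusted p = 0.0498), with levels of 0.448 to 1.1 CPM in chow, 35.8 to 95.8 in vehicle, 17.0 to 91.3 in OA and 3.32 to 38.3 in OA-NO2. In vehicle, Clec7a, Lpl, Capg and Mmp12 averaged 70.6, 239, 14.9 and 65.6 CPM, a small part of the list's sum. Most of that sum came from other genes of the list, so it cannot report on these. Against vehicle, 21 of the 29 were negative in OA-NO2, with a median of -0.46 and no call. Without OA replicate 3, 15 of the list rose in OA and 6 in OA-NO2, and 4 were called lower in OA-NO2 than in vehicle.

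In the pathway of TREM2 and DAP12 (receptors that pair with it, kinases, adaptors and phosphatases), 16 of 23 tested genes rose in vehicle, 14 in OA and none in OA-NO2. These counts were 16, 17 and 1 without OA replicate 3. Inpp5d, the phosphatase SHIP1 that opposes the pathway, rose by 1.34 ± 0.25 in vehicle (adjusted p = 0.00477). Fcer1g, the Fc receptor gamma chain and an adaptor separate from DAP12, rose by 1.64 ± 0.30 (adjusted p = 0.00413). A known inhibitor of the pathway and a known activating adaptor were thus both among the genes that rose, as was Ms4a6b, by 1.88 ± 0.35 (adjusted p = 0.00455). The pathway's summed level was 203 to 228 CPM in chow, 302 to 329 in vehicle, 296 to 375 in OA and 256 to 265 in OA-NO2, 4 ranges of which only vehicle and OA overlap. In OA-NO2 over vehicle 21 of 23 were negative with a median of -0.71 and no call, and without OA replicate 3 there was 1 call.

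Among genes of monocyte recruitment and entry, 18 of 22 tested rose in vehicle, 16 in OA and none in OA-NO2. Ccr2, the receptor by which classical monocytes leave the marrow, rose by 3.24 ± 0.49 in vehicle (adjusted p = 0.00254) and by 2.94 ± 0.49 in OA (0.00524). In OA-NO2 it was 1.69 ± 0.50 over chow (adjusted p = 0.113) and -1.55 ± 0.43 over vehicle (0.162). The chemokine Ccl5 rose by 2.96 ± 0.45 in vehicle (adjusted p = 0.00254). The summed level of the list was 62.9 to 85.9 CPM in chow, 182 to 229 in vehicle, 142 to 276 in OA and 119 to 151 in OA-NO2. Without OA replicate 3 the counts over chow were 18, 19 and 2, and 3 genes were called lower in OA-NO2 than in vehicle.

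Monocyte markers were counted beside these lists. 5 of 10 tested classical monocyte markers rose in vehicle and 5 in OA, among them Plac8 by 1.53 ± 0.27 in vehicle (adjusted p = 0.00369), Ms4a4c by 2.23 ± 0.39 (0.0038) and Thbs1, thrombospondin-1, by 3.90 ± 0.72 (0.00455). 3 of 9 nonclassical markers rose in each of these groups, Itgal by 1.11 ± 0.25 (adjusted p = 0.0109) and Treml4 by 0.92 ± 0.21 (0.0114) in vehicle beside Cx3cr1. The summed level of the classical markers was 6670 to 8800 CPM in chow, 5940 to 6660 in vehicle, 6240 to 7000 in OA and 4890 to 7630 in OA-NO2, and that of the nonclassical markers 17.0 to 53.1, 55.2 to 63.1, 41.2 to 63.2 and 30.1 to 41.4 in the same order. Ccr2, Plac8, Thbs1 and Ms4a4c averaged 18.5, 23.1, 5.4 and 3.25 CPM in vehicle, a small part of the classical sum. Most of that sum came from other genes of the list, so it cannot report on these. In OA-NO2 neither list had a call over chow. The counts in OA stayed at 5 and 3 without OA replicate 3, and those in OA-NO2 were then 2 and 1.

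The families of single members did not move as a block. Of 23 tetraspanins tested, Cd9 and Cd63 included, 7 rose and 3 fell in vehicle. Cd53, a leukocyte tetraspanin, rose by 1.59 ± 0.33 (adjusted p = 0.00701) and Tspan3 by 1.43 ± 0.30 (0.00763), while Tspan31 fell by 0.98 on the log2 scale (adjusted p = 0.00365). Of 8 galectins and galectin-3 partners tested, 3 rose in vehicle, Lgals3, Lgals1 by 2.12 ± 0.35 (adjusted p = 0.00318) and the galectin-3 binding protein Lgals3bp by 0.53 ± 0.16 (0.0358). Lgals8 (-0.45, adjusted p = 0.063) and Lgals9 (-0.42, 0.133) did not pass. Of 5 tested genes of the Ly6 cluster, where Ly6c2 lies, 3 rose in vehicle, Ly6d by 4.47 ± 0.69 (adjusted p = 0.00254), Ly6a by 1.39 ± 0.29 (0.00728) and Ly6e by 1.03 ± 0.21 (0.00622). Gpihbp1, the endothelial anchor of lipoprotein lipase, differed by 0.20 (adjusted p = 0.469).

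For Gpnmb, the list held its MiT transcription factors, the related melanosomal gene Pmel and genes reported as partners. Of 8 tested, Cd44 rose in vehicle (adjusted p = 0.0159) and Egfr fell (adjusted p = 0.00207), and Egfr was also lower in OA-NO2 than in chow (-1.44, adjusted p = 0.0469). Tfec, a MiT factor of macrophages, differed from chow by 0.56 in vehicle (adjusted p = 0.11) and 0.87 in OA-NO2 (0.0916).

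**Figure D5:**
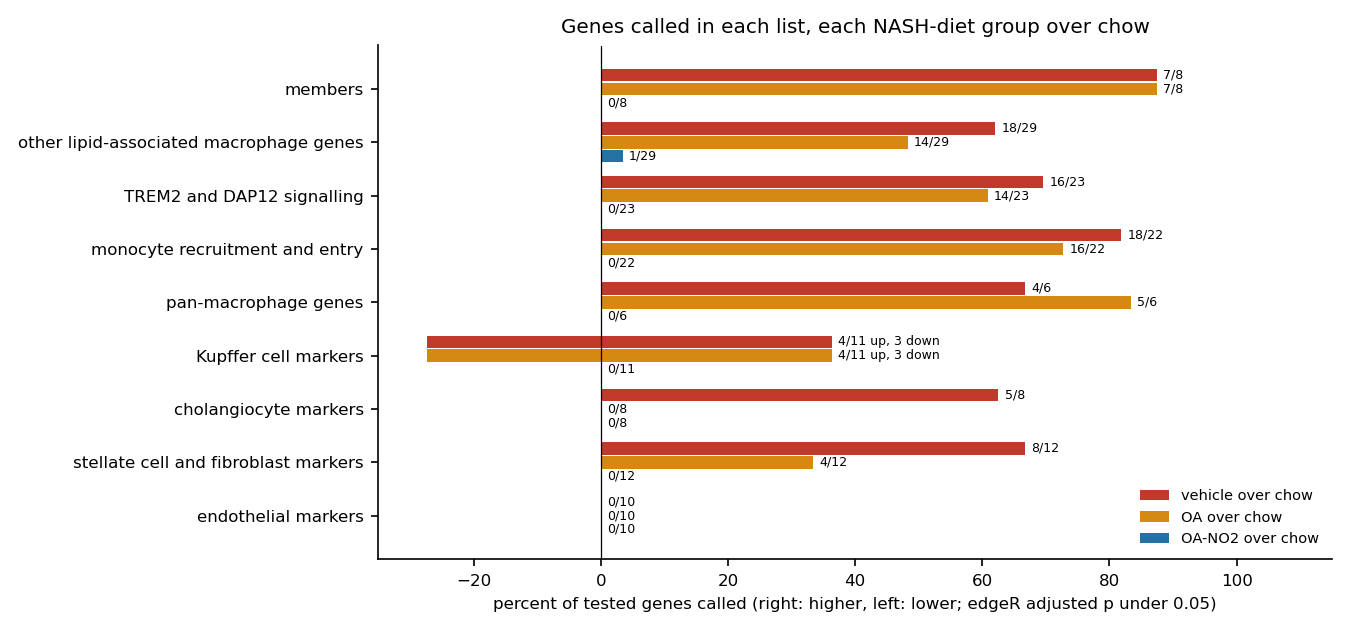
Genes called in 9 of the lists as a share of those tested, for each NASH-diet group over chow, with bars to the left for genes called lower and counts printed beside the bars. The macrophage and monocyte lists have bars in vehicle and OA, and for the 9 lists drawn, the one call in OA-NO2 is 1 of 29 other lipid-associated macrophage genes.

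Several members are made by other cells too, and markers of those cells were set beside them. Of 8 tested cholangiocyte markers 5 rose in vehicle and none in OA or OA-NO2, with a summed level of 16.9 to 17.3 CPM in chow, 25.2 to 68.6 in vehicle, 13.2 to 53.8 in OA and 21.1 to 31.1 in OA-NO2. Of 12 stellate cell and fibroblast markers 8 rose in vehicle, 4 in OA and none in OA-NO2, with 375 to 477 CPM in chow, 662 to 1150 in vehicle, 493 to 1110 in OA and 409 to 641 in OA-NO2. All 12 were negative in OA-NO2 over vehicle. Without OA replicate 3, 4 cholangiocyte and 8 stellate cell and fibroblast markers rose in OA, and the OA sums were 37.1 and 53.8 CPM and 860 and 1110 CPM. Both sums were higher in vehicle than in chow, as were all 8 members. In OA over chow with all libraries, no cholangiocyte marker was called. Cd24a differed by 1.95 (adjusted p = 0.0602), Epcam by 2.85 (0.0937), Muc1 by 2.04 (0.13) and Sox9 by 0.57 (0.499). These missed thresholds do not set the markers apart from Lgals3, Cd9 and Cd63, which were called. The part of these cells in the levels of Lgals3, Cd9 and Cd63 was not tested. Endothelial markers had no call in 10 in vehicle over chow, with 215 to 347 CPM in chow and 221 to 270 in vehicle. Over the 3 NASH-diet groups together, the endothelial marker Kdr was called lower than in chow (-0.62, adjusted p = 0.0473). Of 5 tested neutrophil markers none was called, and their summed level was 2.65 to 14.9 CPM in chow, 6.57 to 16.3 in vehicle, 8.55 to 23.4 in OA and 5.32 to 7.3 in OA-NO2, with Ly6g at 0 in vehicle and OA-NO2. Their part in the Lyz2 level was not tested. Dendritic cell markers had 2 of 7 and lymphocyte markers 3 of 11 called higher in vehicle. Of 8 hepatocyte markers 5 fell and 1 rose in vehicle, with summed levels of 125000 to 155000 CPM in chow, 50100 to 66400 in vehicle and 72700 to 107000 in OA-NO2. The part of this lower hepatocyte share in the members' levels was not tested.

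Genes on the Kupffer cell marker list moved in both directions, and of those named here only the C1q genes rose in vehicle. Of 11 tested, 4 rose and 3 fell in vehicle, and 4 rose and 3 fell in OA, with and without OA replicate 3. The complement genes C1qb (1.42 ± 0.24, adjusted p = 0.00365), C1qa (1.2 ± 0.23, 0.00526) and C1qc (1.08 ± 0.22, 0.00708) rose in vehicle, Timd4 fell by 3.30 on the log2 scale (adjusted p = 0.00342) and Clec4f differed by -0.02 (0.967). Clec4f, Vsig4 and the C1q genes, the other reference used for the relative scale, had 3 of 5 called higher in vehicle and in OA and none in OA-NO2. In OA-NO2 over chow Timd4 differed by -0.24 (adjusted p = 0.821). Cd163, the haemoglobin scavenger receptor, was the one gene of all lists called between infusions, higher in OA-NO2 than in OA by 3.76 ± 0.35 (adjusted p = 0.00085) and also called against vehicle. Its mean was 16.7 CPM in chow, 0.638 in vehicle, 1.35 in OA and 18.4 in OA-NO2. Over chow it was called lower in vehicle (-4.71, adjusted p = 8.18e-05) and in OA (-3.62, 0.000282). In OA-NO2 it differed from chow by 0.14 (adjusted p = 0.827). Its direction between infusions was opposite to that of all 8 members.

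The genes whose profile over the 9 livers on the NASH diet was most like a member's were found by the root mean square difference of centred log2 values, among 11630 protein-coding genes. Members were left out of these lists and are placed separately. For Trem2 these were Cx3cr1 (0.18), Cyp1b1 (0.22), Dpt (0.24), Ccl2 (0.29) and Myof (0.29), where Trem2's own root mean square deviation was 1.07. The nearest member to Trem2 was Cd63, in place 7. For Gpnmb they were Mmp12 (0.27), Shc2 (0.64), Ly6d (0.64), Col3a1 (0.67) and Dpt (0.68), against its own 1.65. The nearest member to Gpnmb was Trem2 (0.65), in place 4. Mmp12 was thus much nearer to Gpnmb than any other gene was. For Ly6c2 the nearest was Mis18a (0.16), against its own 0.48, a likeness that rests on few counts. All these values share the same 9 libraries and are descriptions.

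Near-identical copies, or for Cd9 an overlapping gene, could take reads from 4 members. This was measured as windows of 76 bases, the read length, that another gene also holds. The processed pseudogene Cd63-ps shares 25.6% of the Cd63 windows, and it was called higher in vehicle as well (3.50 ± 0.83, adjusted p = 0.0129), with 698 counts over all libraries. Lyz1 shares 5.8% of the Lyz2 windows, but Lyz2 held at least 99.3% of the counts of the pair in every library, and Lyz1 itself was not called in vehicle (2.38, adjusted p = 0.0957). Ly6c1 shares 21.7% of the Ly6c2 windows, and Ly6c2 held 52.3% to 100% of the counts of that pair, so Ly6c2 values are uncertain in this respect. Cd9 shares 12.4% of its windows with Gm26728, an overlapping processed transcript on the opposite strand, which had 7 counts against 4573 for Cd9. The sources used here do not say how reads with several matches, or from either strand, were counted. Trem2, Gpnmb, Lgals3 and Tyrobp shared no window with another gene.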

How the data were processed

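Liver mRNA libraries (KAPA mRNA HyperPrep) were sequenced as read pairs of 76 bases on an Illumina HiSeq, per the labels' protocols. Reads were trimmed with Trimmomatic 0.35, and the submitters' processing notes also name HISAT2 2.1.0, SAMtools 1.2, HTSeq and the build GRCm38. The sources used here give neither the annotation release nor the strand setting nor the handling of reads with several matches. The authors deposited whole-number counts per gene, not normalized, with Ensembl identifiers, of which 24914 of 24983 matched a symbol.

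Counts were fitted with edgeR 4.0.16 (R 4.3.3, limma 3.58.1) in 1 model of 12 libraries and 4 groups, with TMM scaling, filterByExpr (minimum count 10, total 15), the quasi-likelihood F-test and Benjamini-Hochberg adjustment over 14469 genes. The common biological coefficient of variation was 0.226. SE was derived from the log2 fold change and its F statistic (absolute log2 fold change over the root of F), and 95% intervals from the normal quantile, so both are approximate. CPM used TMM-scaled totals, and CPM per kb used GENCODE M21 exon lengths, whose coordinates on GRCm38 are 1-based. On the relative scale, the library size was the summed counts of 6 pan-macrophage genes, without TMM. The likeness measure used log2(CPM + 0.5), centred per gene, for protein-coding genes averaging 1 CPM or more. Python 3.11.15, numpy 2.4.6, pandas 2.3.3 and matplotlib 3.10.9 were used for the rest.

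The 8 members and the 23 lists (256 genes, 8 not in the table) were chosen with earlier results of these data known, so no count of them is independent evidence. All members are named, and of each other list the 4 genes with the lowest p in the NASH-diet groups over chow at a mean of 1 CPM or more, genes called between infusions, and Lyz1 and Ly6c1. Not every gene so named is reported here. Replicate numbers follow accession order and pair nothing. No 2 libraries of a group were duplicates, since chi-square per degree of freedom was at least 24.3 for every pair. Alternatives were DESeq2 1.42.0, other scalings, no filter, separate fits, another macrophage reference and leaving out each library. DESeq2 was run on the whole count table with its own filtering, so its totals are over another set of genes than edgeR's. The fit was tested on simulated counts. Counting error is largest for Ly6c2, with 4 to 38 counts per library, and for Gpnmb in chow, with 9 counts in all.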

Additional observations from a re-analysis of the deposited data

How the results depend on the processing

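The counts of members called over chow stayed at 6 to 7 of 8 in vehicle and 5 to 7 in OA when each library was left out, and at 7 to 8 and 6 to 8 under the other alternatives. The count for the 3 NASH-diet groups together stayed at 6 to 7 without each library. OA over vehicle stayed at 0 under every alternative run. OA-NO2 over chow went from 0 to 3 with library size alone, with no filter and with DESeq2, and to 1 (Lgals3) with only the groups compared. Leaving out each library gave 0 to 3, with 3 without OA replicate 3 and 1 (Gpnmb) without OA-NO2 replicate 2. OA-NO2 over vehicle went from 0 to 3 with no filter (Trem2, Cd63 and Lyz2), to 2 with DESeq2 (Trem2, adjusted p = 0.0129, and Lyz2, 0.0134) and to 1 (Lyz2) with only the groups compared, and to 0 to 3 without each library. OA-NO2 over OA went from 0 to 1 with DESeq2 and to 0 to 3 without each library. Relative to the pan-macrophage genes, the counts without each library were 4 to 6 for vehicle over chow, 3 to 5 for OA over chow, 1 to 4 for OA-NO2 over chow, 0 to 1 for OA-NO2 over vehicle, 0 to 3 for OA-NO2 over OA and 4 to 5 for the 3 groups together. With the Kupffer and C1q reference they were 7, 6 and 2 for the first 3 and 6 for the 3 groups together. The share of all genes called was not counted in any of these relative alternatives. The cause of these changes in count was not tested, beyond the smaller number of samples in the fits without a library.

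Without each library, OA over vehicle ranged from -0.57 to 0.14 for Trem2, -0.49 to 0.64 for Gpnmb, -0.56 to 0.15 for Cd9, -0.72 to 0.13 for Lgals3, -0.20 to 0.26 for Tyrobp, -0.33 to 0.29 for Lyz2 and -0.44 to 0.083 for Ly6c2, none of them called. On the relative scale, signs also turned among uncalled values. Over chow, Ly6c2 ranged from -0.28 to 0.11 in vehicle, with 0.20 under the Kupffer and C1q reference, and stood at 0.022 in OA under that reference. Cd9 ranged from -0.25 to 0.40 in OA and from -0.17 to 0.38 in OA-NO2, and Lyz2 from -0.10 to 0.11 in OA-NO2. Gpnmb in OA over vehicle ranged from -0.89 to 0.29. In OA-NO2 over OA, Cd9 ranged from -0.31 to 0.45, with -0.12 under the Kupffer and C1q reference, Cd63 from -1.17 to 0.18 and Lgals3 from -0.92 to 0.13. Trem2 in OA-NO2 over chow lost its relative call under that reference (adjusted p = 0.0581).

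Counts over all genes moved more. Vehicle over chow went from 2786 genes (1606 higher) to 5758 (5510 higher) with library size alone and to 1200 to 3100 without each library. OA over chow went from 1238 (916 higher) to 3776 (3649 higher) with library size alone, 776 with only the groups compared and 347 to 2232 without each library. OA-NO2 over chow went from 99 (63 higher) to 1127 (1099 higher) with library size alone, 262 with no filter, 654 with DESeq2, 53 with only the groups compared and 15 to 284 without each library. OA-NO2 over vehicle went from 3 to 151 with no filter, 287 with DESeq2, 62 with only the groups compared and 1 to 155 without each library. OA-NO2 over OA went from 1 to 10 with no filter, 52 with DESeq2 and 1 to 130 without each library. The 3 groups together went from 2335 (1325 higher) to 5328 (5107 higher) with library size alone and down to 859 without a library. Plain library totals in place of TMM-scaled ones lowered the mean CPM of every member in chow and raised it in vehicle, by construction, and the shift was larger than the replicate SD for Ly6c2 in chow, from 0.697 to 0.561 CPM. No paired analysis was possible because replicate numbers follow accession order and every mouse has its own ear tag. Library size alone moved the median of all genes by 0.51, 0.42 and 0.34 over chow in vehicle, OA and OA-NO2, and by -0.18 in OA-NO2 over vehicle. The 3 mice per group and the few Ly6c2 counts limit all of these comparisons.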

Other observations

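Cfd encodes adipsin, a complement factor made mainly by fat cells, and it was the only gene of the adipose list to pass the filter. It rose over chow in vehicle (2.48 ± 0.73, adjusted p = 0.0322), in OA (3.44 ± 0.74, 0.0139) and in OA-NO2 (4.61 ± 0.76, 0.0252), the one listed gene other than Mmp12 that rose in OA-NO2. Its levels were 2.43 to 4.21 CPM in chow, 9.74 to 31.8 in vehicle, 9.53 to 81.2 in OA and 59.2 to 125 in OA-NO2. All OA-NO2 livers were thus above all vehicle livers, the opposite order to that of Trem2, Gpnmb and Lyz2, and the difference did not pass the test (2.13 ± 0.64, adjusted p = 0.174). Of the fat cell genes, Lep and Plin1 were at 0 in chow, Plin1 was at 0 in OA and Lep was at 0 in OA-NO2.

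Dct encodes dopachrome tautomerase, a pigment cell enzyme, and was the only melanocyte gene tested beside Gpnmb. It went the other way from Gpnmb, at 7.68 to 13.4 CPM in chow and 0.761 to 3.77 in vehicle (-2.66 ± 0.70, adjusted p = 0.021).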
